A study of Mus musculus with 23 samples.

Results

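The genes described here are 8 genes known for their expression in goblet cells of the colon, *Zg16*, *Fcgbp*, *Tff3*, *Klk1*, *Spink4*, *Agr2*, *Capn9* and *Sytl2*. They were picked by symbol from a table of 55449 genes, with no measured value in the rule, and all 8 had counts in each of 23 libraries. Earlier results of these data were known when the 8 genes were chosen. RNA was sequenced from the colon of male C57BL/6 mice of the genotype Cdx2Apcf/w. These mice lose 1 copy of the tumor suppressor *Apc* in cells that express Cre from the *Cdx2* promoter. By the methods of the study they were 6 to 8 weeks old when treatment began, and so older when tissue was taken. All mice were fed a 60% high-fat diet (HFD) and, by the methods of the study, had antibiotics before they were colonized with *B. fragilis* (BF) strain 638R. The BF BSHlow strain, bsh- in the labels, carries an empty vector. The BF BSHhigh strain, bsh+ in the labels, carries a bile salt hydrolase (BSH) gene of another *B. fragilis* strain, and bile salt hydrolase removes the amino acid from conjugated bile acids. After 12 weeks there were 4 libraries of non-tumor tissues (NT) in each arm, 4 of BF BSHlow tumors (T) and 3 of BF BSHhigh tumors. After 2 weeks there were 4 libraries of normal colon in each arm. The 3 BF BSHhigh tumors stand in columns whose header repeats names of BF BSHlow tumors. They were taken as that group because a supplementary table of the study lists their values under it, and they are called tumors a, b and c. Each value given here for BF BSHhigh tumors rests on this assignment.

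Goblet cells fill the crypts of the colon and release mucus, which keeps bacteria away from the epithelium. The gel of that mucus is built from the mucin MUC2, which is folded and joined in the endoplasmic reticulum and stored in granules that dock at the cell surface before release. Loss of mature goblet cells is a known feature of colon tumors driven by WNT signaling. *Zg16* encodes a lectin-like mucus protein that binds Gram-positive bacteria, *Fcgbp* a large mucus protein bound to MUC2, and *Tff3* the trefoil peptide of epithelial repair. *Klk1* encodes tissue kallikrein, a secreted serine protease that releases kinins, and *Spink4* a secreted Kazal-type peptidase inhibitor. The remaining 3 genes work mainly inside the cell, so that not all 8 products are secreted proteins. *Agr2* encodes a protein disulfide isomerase of the endoplasmic reticulum that is needed to make MUC2, *Sytl2* a RAB27 effector of granule docking, and *Capn9* a calcium-dependent protease of the digestive tract.

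Promoter windows are shown because the 8 genes fell together in tumors. RefSeq gave a window for 4 of the 8 genes on GRCm38.p6, and the 250 bases before each start are printed 5′ to 3′ on the coding strand, which is the plus strand for all 4. Capitals mark matches on either strand to CCACCC (read as GGGTGG on the other strand), a motif of the KLF family, or to CAGCTG, an E-box.
*Fcgbp*, chr7:28070986-28071235: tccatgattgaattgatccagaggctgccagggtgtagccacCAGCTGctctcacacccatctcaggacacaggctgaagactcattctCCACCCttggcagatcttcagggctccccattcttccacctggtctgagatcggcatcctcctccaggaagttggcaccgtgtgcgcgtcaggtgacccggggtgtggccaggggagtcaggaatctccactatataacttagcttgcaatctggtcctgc
*Agr2*, chr12:35992675-35992924: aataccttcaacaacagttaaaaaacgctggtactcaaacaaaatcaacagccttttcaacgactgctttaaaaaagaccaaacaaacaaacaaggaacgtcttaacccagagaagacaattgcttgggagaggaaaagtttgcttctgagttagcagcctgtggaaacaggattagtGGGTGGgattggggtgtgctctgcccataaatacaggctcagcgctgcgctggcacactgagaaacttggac
*Klk1*, chr7:44225110-44225359: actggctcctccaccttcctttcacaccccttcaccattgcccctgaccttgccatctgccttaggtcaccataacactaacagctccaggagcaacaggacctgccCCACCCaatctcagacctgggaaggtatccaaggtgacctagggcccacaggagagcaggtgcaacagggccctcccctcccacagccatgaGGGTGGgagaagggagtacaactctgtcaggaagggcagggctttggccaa
*Capn9*, chr8:124575861-124576110: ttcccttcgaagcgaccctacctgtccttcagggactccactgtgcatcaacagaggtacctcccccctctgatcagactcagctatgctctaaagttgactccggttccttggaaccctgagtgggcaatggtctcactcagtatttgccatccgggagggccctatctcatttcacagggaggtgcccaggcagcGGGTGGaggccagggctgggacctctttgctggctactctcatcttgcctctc
CCACCC was found in all 4 windows, 1 match each in *Fcgbp*, *Agr2* and *Capn9* and 2 in *Klk1*, and in 28.1% of 32851 promoters of the same length. CAGCTG was found in *Fcgbp* alone, and in 13.0% of all promoters. TATAAA and TGTTTAC, searched on both strands, had no match in the 4 windows, and 12.4% and 3.17% of all promoters hold them. A match describes the letters of a window and no binding was measured here.

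All 8 genes are protein-coding, and 4 of them lie on chromosome 7 of GRCm38. *Zg16* (ENSMUSG00000049350.6) spans chromosome 7, 127050156 to 127087328 on the minus strand, *Fcgbp* (ENSMUSG00000047730.17) 28071236 to 28120862 on the plus strand, *Klk1* (ENSMUSG00000063903.5) 44225360 to 44229618 on the plus strand, and *Sytl2* (ENSMUSG00000030616.15) 90302252 to 90410719 on the plus strand. *Agr2* (ENSMUSG00000020581.11) spans chromosome 12, 35992907 to 36004087 on the plus strand, and *Capn9* (ENSMUSG00000031981.7) chromosome 8, 124576111 to 124618731 on the plus strand. *Tff3* (ENSMUSG00000024029.4) spans chromosome 17, 31125306 to 31129646 on the minus strand, and *Spink4* (ENSMUSG00000028415.4) chromosome 4, 40920052 to 40931395 on the plus strand. *Klk1* belongs to a family of near copies, and its counts were not whole in 16 libraries, nor were those of *Fcgbp* in 22. Such values arise where the counting divides reads that match more than 1 place, so the levels of both genes depend on that division. *Klk1* overlaps a pseudogene on the other strand and *Zg16* overlaps a lincRNA gene and an snRNA gene on the other strand, and the strand setting of the counting is not given in the sources used here.

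Total expected counts per library lay between 12401388 and 17903008, with a median of 15874872, and *Zg16*, *Klk1* and *Capn9* were counted down to 21, 45 and 6 in single tumors. The labelled tissues were checked against marker genes chosen for the cell types that colon can hold. The epithelial markers *Epcam* and *Cdh1* had means between 842 and 1836 CPM in all 6 groups, where CPM is the count per 1000000 counts after scaling by the trimmed mean of M values (TMM). The summed CPM of 8 WNT target genes, which includes *Axin2* and *Notum*, lay between 1521 and 1921 in all tumors and between 110.4 and 199 elsewhere. The summed CPM of 6 genes of pancreatic acinar cells, which also make *Zg16* and *Klk1*, was at most 0.521 in any library, and its marker *Cpa1* was listed at 0 in all 23.

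In colon outside tumors, the 8 genes together made up between 0.639% and 2.32% of all counts of a library. In BF BSHlow tumors they made up between 0.0182% and 0.0284%, and in BF BSHhigh tumors 0.426%, 0.146% and 0.0815% in tumors a, b and c. Their summed level was 12056 ± 2195 CPM (SD, n = 4) in BF BSHlow and 17834 ± 4645 CPM (SD, n = 4) in BF BSHhigh non-tumor tissues. In tumors it was 188 ± 39.9 CPM (SD, n = 4) in BF BSHlow and 1813 ± 1600 CPM (SD, n = 3) in BF BSHhigh. Tumor a alone had 3637 CPM, and without it the BF BSHhigh mean was 901 CPM. No library of a tumor reached the level of any library of non-tumor or normal colon, and the 2 tumor groups did not overlap.

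**Figure D1:**
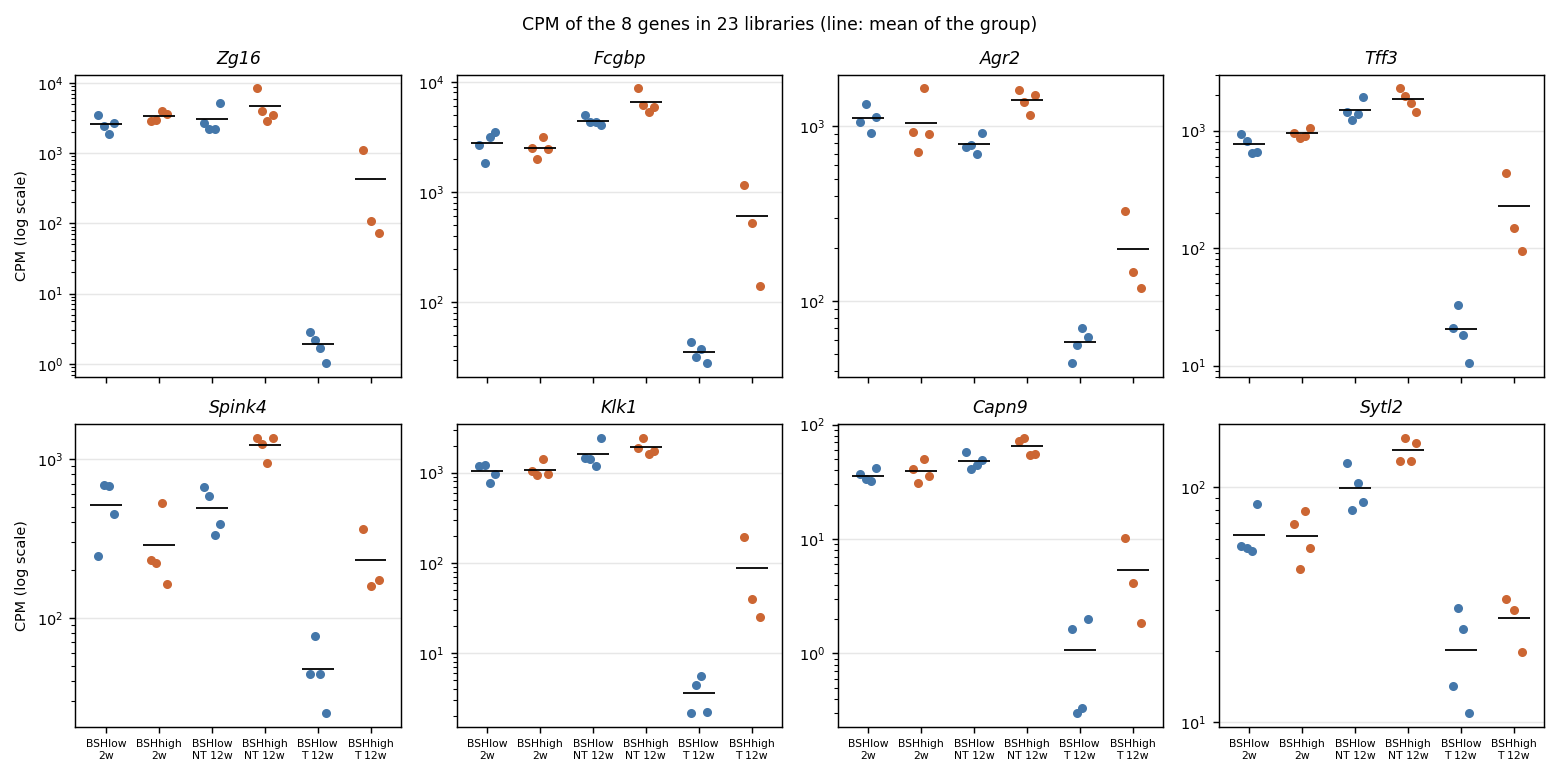
CPM (log axis, scale differs between panels) of each gene in the 23 libraries, with 1 point per library and a line at the mean of each group (blue, BF BSHlow; orange, BF BSHhigh; 2w, normal colon after 2 weeks; NT and T, non-tumor and tumor after 12 weeks). For *Zg16*, BF BSHlow tumors lie between 1.02 and 2.84 CPM and BF BSHhigh tumors between 73.5 and 1116 CPM.

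Levels of different genes were compared per kilobase of the principal transcript. In BF BSHlow non-tumor tissues *Zg16* was the most abundant at 4489 ± 2126 CPM per kb (SD, n = 4), followed by *Tff3* at 3046 ± 638 CPM per kb (SD, n = 4), and the ranges of these 2 genes overlapped. *Sytl2* and *Capn9* were the least abundant, at 26.2 ± 5.5 and 20.6 ± 3.2 CPM per kb (SD, n = 4). The order of the mucus genes and the intracellular genes differed in BF BSHlow tumors. In those tumors *Spink4* was first at 120 ± 54.1 and *Agr2* second at 74.1 ± 13.98 CPM per kb, and *Zg16* was the seventh of the 8 genes at 2.82 ± 1.14 CPM per kb (SD, n = 4). In BF BSHhigh tumors *Zg16* had the highest mean, at 634 ± 868 CPM per kb (SD, n = 3), with 108 to 1636 in the 3 tumors, and its range overlapped that of *Spink4*, at 397 to 911 CPM per kb.

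Whether the tumors of either arm differed from the non-tumor tissues of the same arm was tested with the 15 libraries of 12 weeks. All 8 genes were lower in tumors in both arms past an adjusted p of 0.05 and a 2-fold change, the thresholds for a call throughout, and their groups did not overlap in either arm. Of all 16454 genes tested, 19.5% were called lower in BF BSHlow tumors and 14.8% in BF BSHhigh tumors, and 28.4% and 28.9% were lower with no overlap. The median log2 fold change of the 8 genes was -5.83 in BF BSHlow and -3.25 in BF BSHhigh, against 0.04 over all genes tested in each arm. Over all genes, 2751 were called higher and 3205 lower in BF BSHlow tumors, and 2398 higher and 2433 lower in BF BSHhigh tumors. Library size scaling moved this split to 3999 and 2510, and to 3534 and 1807, with medians of 0.37 and 0.35, and all 8 genes were still called lower. In bulk tissue, fewer goblet cells and less RNA of these genes per cell cannot be told apart. Other lists fell too. In BF BSHlow tumors 15 of 17 other goblet, 9 of 10 absorptive colonocyte and 5 of 6 enteroendocrine genes tested were called lower. So were 6 of 6 smooth muscle, 4 of 4 plasma cell and 3 of 8 epithelial genes. The 8 WNT target genes, 4 of 4 squamous genes and 1 epithelial gene were called higher. In BF BSHhigh tumors 15 other goblet, 8 absorptive colonocyte, 4 enteroendocrine, 6 smooth muscle and 4 plasma cell genes were called lower.

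The size of the fall in BF BSHlow tumors differed among the genes. *Zg16* had 2643, 2221, 2169 and 5213 CPM in the 4 BF BSHlow non-tumor tissues and 2.84, 2.17, 1.65 and 1.02 CPM in the 4 tumors, or -10.63 as a log2 fold change with its standard error (SE) from the quasi-likelihood fit (1.03, edgeR adjusted p = 7.58e-07). *Klk1* had between 1200 and 2413 CPM in non-tumor tissues and 2.17, 4.40, 5.53 and 2.23 CPM in tumors, or -8.82 on the log2 scale (SE 0.70, edgeR adjusted p = 1.37e-07). *Fcgbp* and *Tff3* fell by 6.97 and 6.19 on the log2 scale. These 4 genes encode secreted proteins and had the 4 largest falls of the 8. *Capn9* fell by 5.47 on the log2 scale, *Agr2* by 3.76 and *Sytl2* by 2.30, and the secreted inhibitor *Spink4* fell by 3.36.

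In BF BSHhigh tumors the fall lay in a narrower range, from a log2 fold change of -4.47 for *Klk1* (SE 0.65, edgeR adjusted p = 5.45e-05) to -2.38 for *Sytl2* (SE 0.31, edgeR adjusted p = 2.19e-05). *Zg16* changed by -3.46 (SE 0.83, edgeR adjusted p = 0.00292). Tumor a held the highest level of each of the 8 genes, and without it the log2 fold change of *Zg16* was -5.68 and that of *Klk1* -5.87, with all 8 genes still called.

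**Figure D2:**
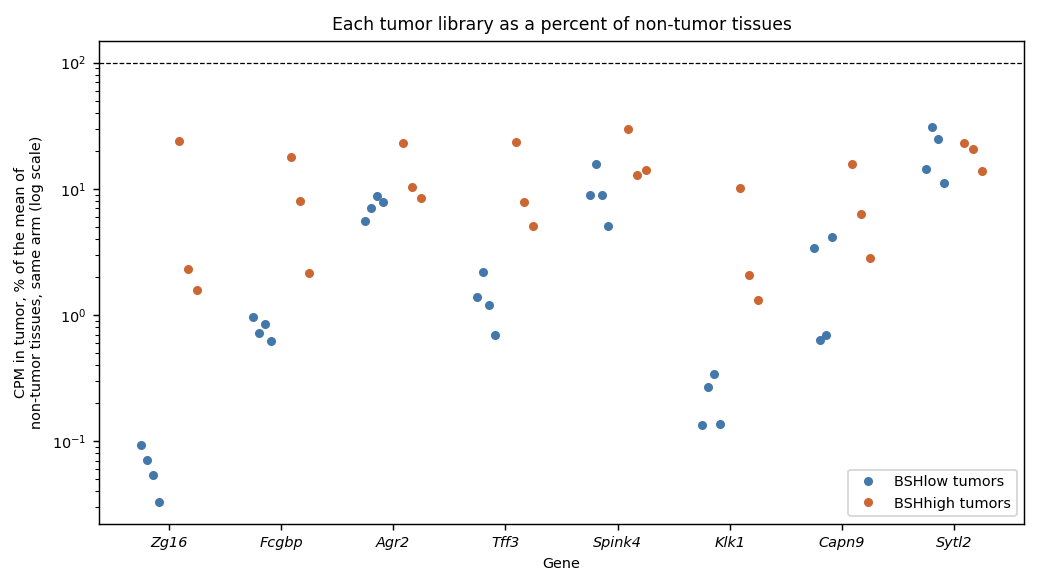
CPM in each tumor library as a percent of the mean of the non-tumor tissues of the same arm (log axis), for each gene, with 1 point per library (blue, 4 BF BSHlow tumors; orange, 3 BF BSHhigh tumors) and a dashed line at 100%. *Zg16* kept between 0.0332% and 0.0929% in BF BSHlow tumors and between 1.57% and 23.9% in BF BSHhigh tumors, while the points of *Sytl2* overlap between 11.0% and 30.8%.

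As a share of non-tumor tissues, the 8 genes fell into a graded series in BF BSHlow tumors. The mean share was 0.0628% for *Zg16*, 0.220% for *Klk1*, 0.790% for *Fcgbp*, 1.37% for *Tff3*, 2.22% for *Capn9*, 7.35% for *Agr2*, 9.68% for *Spink4* and 20.3% for *Sytl2*. In BF BSHhigh tumors the means spread less, from 4.55% for *Klk1* to 19.3% for *Sytl2*. In tumor a the shares of *Zg16*, *Agr2* and *Tff3* lay at 23.9%, 23.1% and 23.4%.

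Whether BF BSHhigh tumors differed from BF BSHlow tumors was tested with the 7 tumor libraries. *Zg16* and *Fcgbp* were higher in BF BSHhigh tumors past both thresholds, 2 of the 8 genes, where 0.463% of all 15325 genes tested were called higher. *Tff3*, *Klk1*, *Spink4* and *Agr2* had adjusted p-values between 0.0511 and 0.0610, and *Capn9* and *Sytl2* 0.274 and 0.651. In 6 genes every BF BSHhigh tumor lay above every BF BSHlow tumor, as in 8.3% of all genes tested. At an unadjusted p under 0.05 with edgeR 7 were higher, against 8.5% of all genes. All 8 fitted changes were above 0, as were 45.5% over all genes, with a median log2 fold change of 2.87 against -0.03 over all genes.

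*Zg16* had 2.84, 2.17, 1.65 and 1.02 CPM in the BF BSHlow tumors and 1116, 109 and 73.5 CPM in BF BSHhigh tumors a, b and c. The lowest BF BSHhigh tumor was far above the highest BF BSHlow tumor, and tumor a was 15.2 times tumor c. The log2 fold change was 7.78 (SE 1.11, edgeR adjusted p = 0.0406), and without tumor a it was 5.54 (adjusted p = 0.0120). *Fcgbp* had 42.9, 31.8, 37.7 and 27.8 CPM in the BF BSHlow tumors and 1159, 519 and 140 CPM in tumors a, b and c. Its log2 fold change was 4.08 (SE 0.61, edgeR adjusted p = 0.0421). Without tumor a the log2 fold change of *Fcgbp* was 3.21 (edgeR adjusted p = 0.0728).

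*Tff3* had 20.8, 32.8, 18.05 and 10.4 CPM in the BF BSHlow tumors and 436, 147 and 95.4 CPM in tumors a, b and c (log2 fold change 3.44, SE 0.56, edgeR adjusted p = 0.0511). *Klk1* had 2.17, 4.40, 5.53 and 2.23 CPM in the BF BSHlow tumors and 196, 39.9 and 25.2 CPM in tumors a, b and c (log2 fold change 4.58, SE 0.75, edgeR adjusted p = 0.0511). For both genes all 3 BF BSHhigh tumors were above all 4 BF BSHlow tumors, in the order a, b, c. *Spink4* had 44.4, 76.9, 44.5 and 25.2 CPM in the BF BSHlow tumors and 362, 158 and 174 CPM in tumors a, b and c (log2 fold change 2.26, SE 0.40, edgeR adjusted p = 0.0575). It was the only one of the 8 genes in which tumor c was above tumor b. Without tumor a the log2 fold changes of *Tff3* and *Klk1* were 2.55 and 3.17.

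*Agr2*, the isomerase needed for MUC2, had 44.0, 56.1, 70.0 and 62.3 CPM in the BF BSHlow tumors and 326, 147 and 120 CPM in tumors a, b and c (log2 fold change 1.74, SE 0.33, edgeR adjusted p = 0.0610). *Capn9* had 1.64, 0.303, 0.331 and 1.98 CPM in the BF BSHlow tumors and 10.3, 4.11 and 1.84 CPM in tumors a, b and c (log2 fold change 2.29, SE 0.80, edgeR adjusted p = 0.274). *Sytl2* had 14.2, 30.6, 24.8 and 10.9 CPM in the BF BSHlow tumors and 33.3, 29.9 and 19.8 CPM in tumors a, b and c (log2 fold change 0.44, SE 0.35, edgeR adjusted p = 0.651). The groups overlapped for *Capn9* and *Sytl2*, with 2 and 1 of the 3 BF BSHhigh tumors above all BF BSHlow tumors. Without tumor a the log2 fold change of *Capn9* was 1.45.

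The number of the 8 genes called in tumors moved with the processing. It was 5 with DESeq2, which gave *Zg16* a log2 fold change of 7.79 but no adjusted p. It was 6 with the likelihood-ratio test of edgeR, 6 with no filter on low counts and 4 with library size scaling. It was 7 when all 23 libraries shared 1 fit, and 0 with limma-voom. Calls over all genes moved too, from 71 higher of 15325. In the same order they were 569 of 25240, 504 of 15325, 308 of 25240, 89 of 15325, 566 of 16754 and 40 of 15325. The number of the 8 genes called also moved with single libraries. It was 1 without tumor a, 0 without tumor b, 5 without tumor c, and 0 without any 1 of the 4 BF BSHlow tumors. Calls over all genes were not set beside these counts, so the counts only describe the 8 genes.

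**Figure D3:**
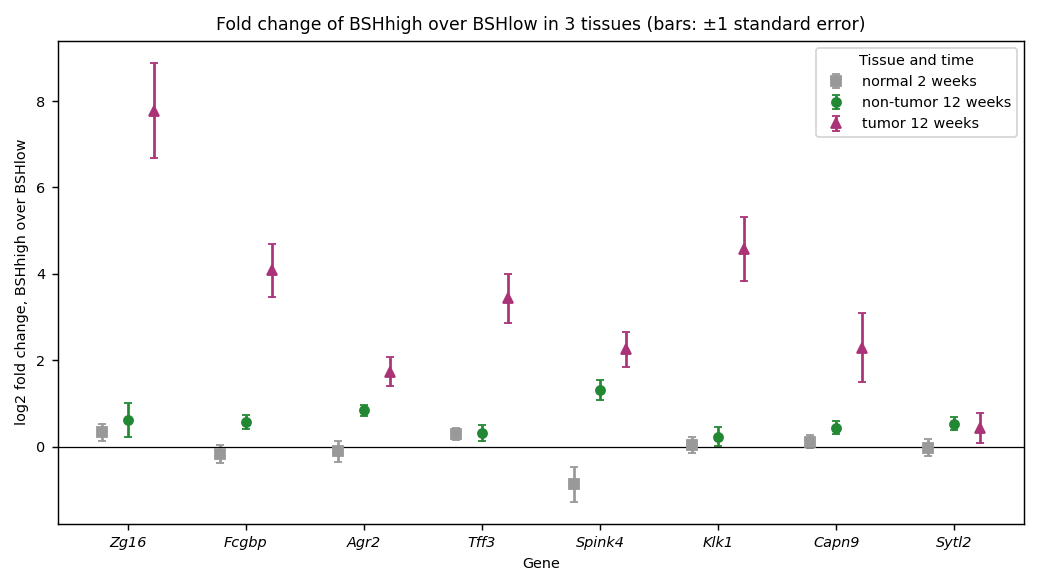
Log2 fold change of BF BSHhigh over BF BSHlow for each gene in normal colon after 2 weeks (squares), non-tumor tissues after 12 weeks (circles) and tumors after 12 weeks (triangles), with bars of ±1 standard error from edgeR. *Zg16* reaches 7.78 in tumors and 0.62 in non-tumor tissues, while *Sytl2* has 0.44 and 0.54, and *Spink4* lies below 0 only after 2 weeks.

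Whether the effect of BF BSHhigh differed between tumors and non-tumor tissues was tested as an interaction over the 15 libraries of 12 weeks. On the log2 scale the effect was larger in tumors for 4 of the 8 genes, where 0.972% of all 16454 genes tested were called in this direction. The difference on the log2 scale was 7.18 for *Zg16* (SE 1.11, edgeR adjusted p = 0.0100), 4.35 for *Klk1* (SE 0.77, edgeR adjusted p = 0.0169), 3.53 for *Fcgbp* (SE 0.61, edgeR adjusted p = 0.0167) and 3.13 for *Tff3* (SE 0.60, edgeR adjusted p = 0.0227). These 4 genes encode secreted proteins, as does *Spink4*, which was not called. The differences of *Capn9* (1.87), *Spink4* (0.94), *Agr2* (0.91) and *Sytl2* (-0.08) had adjusted p-values between 0.361 and 0.987. Without tumor a the 4 genes were still called, with differences between 2.25 for *Tff3* and 4.95 for *Zg16*. *Tff3* was not called without BF BSHhigh non-tumor replicate 3 (edgeR adjusted p = 0.0570) or replicate 4 (edgeR adjusted p = 0.0566). With limma-voom none of the 8 was called, nor was any of 16454 genes. In CPM the gap between the arm means was wider in non-tumor tissues for each of the 4 genes called by edgeR. *Zg16* had means of 3062 CPM in BF BSHlow and 4677 CPM in BF BSHhigh non-tumor tissues, and 1.92 and 433 CPM in tumors.

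The pathway around the 8 genes was described with 18 other goblet cell genes, of which 16 passed the filter on low counts in tumors. Of these 16, 1 was called higher in BF BSHhigh tumors and 0 lower, where 0.463% of all genes were called higher. All 16 fitted changes were above 0, against 45.5% over all genes, and their median log2 fold change was 2.22. The called gene was *Retnlb*, which encodes an antibacterial peptide of goblet cells, with 0 to 0.354 CPM in BF BSHlow and 5.06 to 30.5 CPM in BF BSHhigh tumors (adjusted p = 0.0406 from edgeR). *Muc2*, the mucin gene itself, had 9.24 to 33.0 CPM in BF BSHlow and 144 to 1119 CPM in BF BSHhigh tumors (log2 fold change 4.51, adjusted p = 0.0511). *Clca1*, which encodes a mucus metalloprotease, had a log2 fold change of 4.93 (adjusted p = 0.0865). The transcription factors *Spdef* and *Atoh1* of the secretory lineage had log2 fold changes of 2.52 (adjusted p = 0.0562) and 2.67 (adjusted p = 0.167). *Best2*, *Fer1l6* and *Slc12a8* had 4.27, 4.02 and 2.08, with adjusted p-values between 0.0585 and 0.0846. In the interaction with tissue, *Best2* (difference 4.11, adjusted p = 0.0227) and *Muc2* (difference 3.46, adjusted p = 0.0482) were called.

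Marker lists of other cells were compared between the same tumors. The summed CPM of 10 genes of absorptive colonocytes lay between 198 and 434 in BF BSHlow tumors and was 6575, 3245 and 1236 in BF BSHhigh tumors a, b and c, the same order as the sum of the 8 genes. Of these, 9 were tested, all 9 were fitted above 0 and 3 were called higher. *Aqp8* and *Slc26a3* were among the 3 (log2 fold changes 6.40 and 6.25, adjusted p = 0.0406 and 0.0481 from edgeR). Most of the absorptive colonocyte sum in BF BSHhigh tumors was *Lypd8*, with means of 153 CPM in BF BSHlow and 3207 CPM in BF BSHhigh. *Car1* had 65.3 and 66.6 CPM, and both genes were named after their values were seen. The summed CPM of 4 plasma cell genes lay between 1.69 and 28.6 in BF BSHlow and between 457 and 724 in BF BSHhigh tumors, and 1 of 3 tested was called. Most of that sum was *Igha*, named for this after its values were seen, with means of 10.1 and 473 CPM, while *Jchain* had 1.94 and 96.1 CPM and *Mzb1* 0.192 and 1.53 CPM. The 6 T cell genes, with *Cd3e* and *Cd3d*, summed to 6.58 to 19.7 CPM in BF BSHlow tumors, with 0 of 6 called. In BF BSHhigh tumors a, b and c their sums were 41.4, 32.3 and 30.8 CPM, the same order as the 8 genes. The enteroendocrine genes summed to 17.8 to 459 CPM in BF BSHlow and 58.2 to 91.6 CPM in BF BSHhigh tumors, which overlapped, with medians of 149 and 66.4 CPM. Both this sum and that of the plasma cell genes had the order c, a, b in BF BSHhigh tumors. Of 5 enteroendocrine genes tested 1 was called higher and 4 were fitted above 0. *Chga* and *Chgb* had means of 1.97 and 1.22 CPM in BF BSHlow and 10.4 and 13.6 CPM in BF BSHhigh tumors. Most of the enteroendocrine sum in BF BSHlow tumors was *Pyy*, named for this after its values were seen. Its means were 188 CPM in BF BSHlow and 40.4 CPM in BF BSHhigh tumors. The part of each of these cell types in the difference of the goblet cell genes was not tested.

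Other lists overlapped between the tumor groups or were lower in BF BSHhigh tumors. The 8 epithelial genes summed to between 5013 and 9114 CPM in BF BSHlow and between 6928 and 10332 CPM in BF BSHhigh tumors. The 5 tuft cell genes summed to 156 to 235 CPM in BF BSHlow and 119.5 to 187 CPM in BF BSHhigh tumors, in the order c, b, a in the latter. Most of that sum was *Avil*, named for this after its values were seen, with means of 172 and 141 CPM. *Dclk1* had means of 4.52 and 8.04 CPM and *Trpm5* 1.02 and 1.08 CPM. The 6 smooth muscle genes summed to 115 to 249 and 176 to 344 CPM, in the order a, b, c in BF BSHhigh tumors. The 6 genes of squamous epithelium summed to 72.2 to 171 CPM in BF BSHlow and 34.0 to 51.9 CPM in BF BSHhigh tumors, with *Krt14* at 28.8 to 120 CPM and 16.6 to 26.7 CPM and *Krt5* at most 0.202 CPM in any tumor. Of the tested genes of these lists, edgeR called none between the tumor groups.

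**Figure D4:**
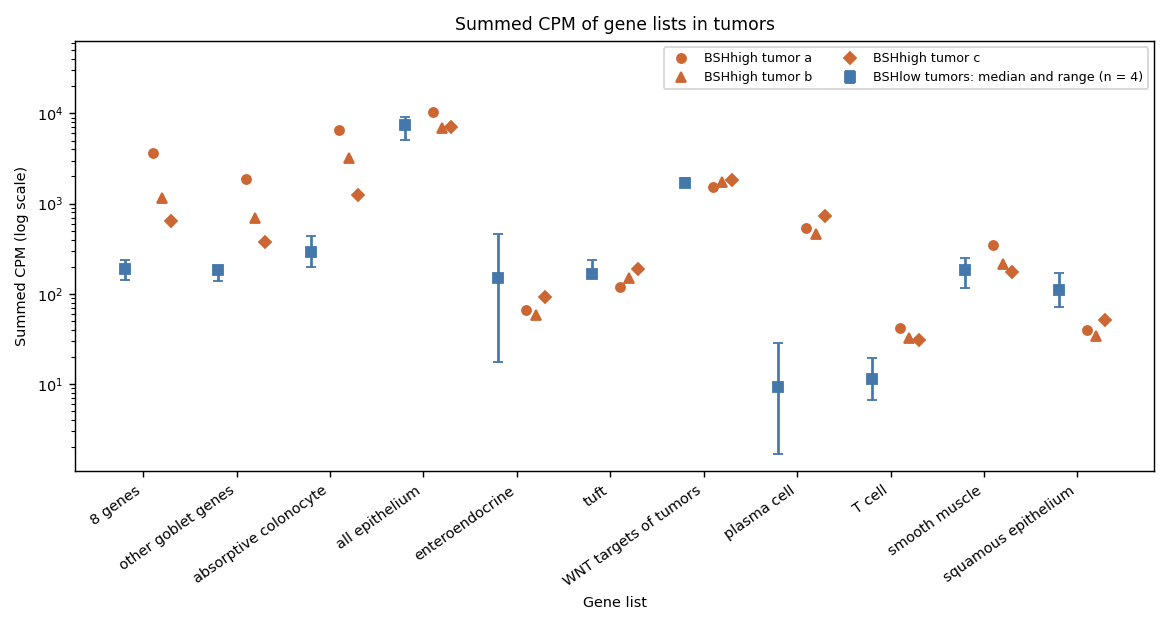
Summed CPM (log axis) of the 8 genes and of marker lists in tumors, with a square at the median and a bar over the range of the 4 BF BSHlow tumors, and a point for each of BF BSHhigh tumors a, b and c. Sums of the 8 genes, other goblet, absorptive colonocyte and T cell genes lie above the BF BSHlow range in the order a, b, c. The WNT targets lie between 1521 and 1921 CPM in both groups, with 1521, 1746 and 1807 CPM in tumors a, b and c.

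Whether BF BSHhigh changed the genes in non-tumor tissues after 12 weeks was tested with 8 libraries. None of the 8 genes was called, and none of 14933 genes was, so that 0% were called higher. All 8 fitted changes were above 0 (47.2% over all genes), with a median log2 fold change of 0.55. At an unadjusted p under 0.05 with the same test of edgeR there were 5 of the 8, against 5.3% of all genes. DESeq2 and the likelihood-ratio test each called 1, *Spink4*, where they called 46 of 24738 and 30 of 14933 genes higher. In 4 genes the groups did not overlap, as in 2.98% of all genes tested.

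Those 4 genes were *Spink4*, *Agr2*, *Fcgbp* and *Sytl2*. *Spink4* had 667, 585, 331 and 390.1 CPM in BF BSHlow and 1348, 1240.3, 948 and 1360.2 CPM in BF BSHhigh non-tumor tissues (log2 fold change 1.32, SE 0.23, edgeR adjusted p = 0.250). *Agr2* had 767, 785, 697 and 913 CPM in BF BSHlow and 1617, 1374, 1163 and 1506 CPM in BF BSHhigh (log2 fold change 0.85, SE 0.13, edgeR adjusted p = 0.208). Both genes were lower in every BF BSHlow library than in any BF BSHhigh library. *Fcgbp* had 4089 to 5026 CPM against 5310 to 8730 CPM (log2 fold change 0.56, adjusted p = 0.402), and *Sytl2* 80.1 to 126.5 CPM against 129 to 162 CPM (log2 fold change 0.54, adjusted p = 0.385). The ranges of *Zg16*, *Tff3*, *Klk1* and *Capn9* overlapped, with log2 fold changes between 0.24 and 0.62 and adjusted p-values between 0.457 and 0.786. *Zg16* had 1 high library in each arm, 5213 CPM in BF BSHlow replicate 4 and 8374 CPM in BF BSHhigh replicate 1. Its log2 fold change was 1.005 without the first and 0.17 without the second.

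The other goblet cell genes were described in the same libraries. All 17 tested were fitted above 0, none was called, and their median log2 fold change was 0.58. *Muc2* had 1672 to 2464 CPM in BF BSHlow and 2348 to 6408 CPM in BF BSHhigh (log2 fold change 1.05, adjusted p = 0.362 from edgeR). *Spdef*, *Atoh1* and *Clca1* had log2 fold changes of 0.64, 0.45 and 0.49, with adjusted p-values between 0.365 and 0.590. The smallest p-values belonged to *Ern2* (0.60), *Slc12a8* (0.87), *Kcnk6* (0.58) and *Foxa3* (0.55), with adjusted p-values of 0.250 for the first and 0.271 for the rest. *Ern2* encodes an endoplasmic reticulum stress sensor of mucus-making cells. Absorptive colonocyte genes summed to overlapping ranges, 14515 to 20626 and 14863 to 17570 CPM, and enteroendocrine genes to 257 to 317 in BF BSHlow and 326 to 391 CPM in BF BSHhigh, which did not overlap. The part of the latter cells was not tested.

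After 2 weeks of colonization, 4 of the 8 genes were fitted above 0 in BF BSHhigh and 4 below, against 49.5% above 0 of 13752 genes tested. None of the 8 was called, where 0.00727% of all genes were called higher, and none had an unadjusted p under 0.05, against 3.83% of all genes in the higher direction. DESeq2 and the likelihood-ratio test called none of the 8 either. *Spink4* had 247, 689, 672 and 448 CPM in BF BSHlow and 231, 221, 531 and 164 CPM in BF BSHhigh normal colon. Its log2 fold change was -0.86 (SE 0.40, edgeR adjusted p = 0.736), the largest in size of the 8, and the groups overlapped. The other 7 lay between -0.15 for *Fcgbp* and 0.34 for *Zg16*. Of the 17 other goblet cell genes tested, 3 were fitted above 0 and none was called. *Muc2* had a log2 fold change of -0.38 (adjusted p = 0.851), and *Atoh1*, *Clca1* and *Spdef* had -0.11, -0.06 and -0.05. Genes that mark distal colon summed to 6.09 to 26.0 CPM in BF BSHlow and 6.97 to 95.2 CPM in BF BSHhigh. These ranges overlapped, and of 2 such genes tested 0 were called. The part of the place sampled was not tested.

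Whether the effect of BF BSHhigh differed between 12 and 2 weeks was tested as an interaction over the 16 libraries outside tumors. None of the 8 genes was called, nor was any of 15532 genes, so that 0% were called higher. All 8 fitted differences were above 0, as were 49.8% over all genes. At an unadjusted p under 0.05 there were 3 of the 8 with edgeR, against 4.57% of all genes in this direction. They were *Spink4* (difference 2.19, SE 0.52, edgeR adjusted p = 0.370), *Agr2* (0.96, adjusted p = 0.449) and *Fcgbp* (0.73, adjusted p = 0.596). DESeq2 and the likelihood-ratio test each called *Spink4*, where they called 16 of 26628 and 17 of 15532 genes in this direction.

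Non-tumor tissues after 12 weeks were compared with normal colon after 2 weeks in each arm. In BF BSHlow, none of the 8 genes was called higher past both thresholds, where 17% of all genes were, and 5 were higher past an adjusted p of 0.05 at any size, where 25.6% of all genes were. The largest of the 5 was *Tff3*, with 648 to 938 CPM after 2 weeks and 1221 to 1952 CPM after 12 weeks (log2 fold change 0.97, SE 0.17, edgeR adjusted p = 0.000296). The others were *Fcgbp* (0.66), *Sytl2* (0.66), *Klk1* (0.64) and *Capn9* (0.41). *Tff3* and *Fcgbp* were higher with no overlap, as were 21.6% of all genes. *Agr2* had a log2 fold change of -0.51 (adjusted p = 0.0574), with every 12-week library below every 2-week library, as in 18.3% of all genes.

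In BF BSHhigh, 3 of the 8 genes were called higher after 12 weeks, where 16.8% of all genes were. *Spink4* had 164 to 531 CPM after 2 weeks and 948 to 1360.2 CPM after 12 weeks (log2 fold change 2.12, SE 0.38, edgeR adjusted p = 0.000311). *Fcgbp* had a log2 fold change of 1.40 (adjusted p = 5.65e-05) and *Sytl2* of 1.23 (adjusted p = 0.000114). *Tff3* (0.99), *Klk1* (0.84) and *Capn9* (0.74) were higher past the adjusted p alone, so that 6 of the 8 passed it, against 27% of all genes. These 6 also did not overlap between the times, as in 24.1% of all genes, while *Zg16* (0.51, adjusted p = 0.221) and *Agr2* (0.45, adjusted p = 0.0879) were not. With library size scaling, which shifted the median log2 fold change of all genes to 0.23 in BF BSHlow and 0.31 in BF BSHhigh, 1 and 6 of the 8 genes were called. In BF BSHhigh that scaling moved the split over all genes from 2611 called higher and 1174 lower to 3233 and 832. In BF BSHlow the split moved from 2635 and 1252 to 3041 and 924.

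Of 17 other goblet cell genes tested in BF BSHlow, 2 were called higher and 4 lower after 12 weeks, where 17% and 8.06% of all genes were. *Muc2* had 4987 to 9694 CPM after 2 weeks and 1672 to 2464 CPM after 12 weeks (log2 fold change -1.84, adjusted p = 0.000124 from edgeR). *Best2* changed by 3.57 and *Pla2g10* by 1.24, and *B3gnt6* by -5.97 and *Slc12a8* by -1.11. *Spdef* fell by 0.95 on the log2 scale (adjusted p = 0.000541), and *Clca1* and *Atoh1* had values of -0.02 and -0.15. In BF BSHhigh, 4 were called higher and 2 lower, where 16.8% and 7.56% of all genes were, and *Muc2* had -0.40 (adjusted p = 0.261).

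The 2 time points also differed in what the tissue held. The 6 smooth muscle genes, with *Myh11* and *Des*, summed to between 7.12 and 208 CPM in the 2-week libraries and between 1518 and 8560 CPM in the 12-week non-tumor libraries. Genes that mark distal colon, with *Hoxb13* and *Hoxd13*, summed to between 6.09 and 95.2 CPM after 2 weeks and between 422 and 784 CPM after 12 weeks. Of the smooth muscle genes all 6 were called higher after 12 weeks in both arms, of 4 plasma cell genes 3, and of 5 tuft cell genes 4 were called lower. The absorptive colonocyte genes summed to between 25329 and 36282 CPM after 2 weeks and between 14515 and 20626 CPM after 12 weeks, with 4 of 10 called lower in each arm. Of 6 T cell genes 1 was called lower in BF BSHlow and 4 in BF BSHhigh, and 1 was called higher in each. The ranges of the smooth muscle, distal colon and absorptive colonocyte sums did not overlap between times, and the mice were also older at the later time. The time of colonization, the age of the mice and the layer and place of the colon sampled cannot be told apart in these libraries.

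Across groups, each of the 8 genes had its highest mean in BF BSHhigh non-tumor tissues and its lowest in BF BSHlow tumors. For *Fcgbp*, *Spink4* and *Sytl2* the first group did not overlap the next, and for the other 5 genes it did. Between BF BSHhigh tumors and the lowest group outside tumors the ranges did not overlap for 7 genes. They overlapped for *Spink4*, where 3 of 4 BF BSHhigh libraries after 2 weeks lay below tumor a. The share of all genes with such gaps between neighbouring groups was not counted, so these counts only describe the 8 genes. In the 16 libraries outside tumors the 8 genes were correlated to different degrees. Pearson's r of log2 CPM was 0.92 between *Sytl2* and *Capn9* and 0.91 between *Sytl2* and *Fcgbp*, but 0.18 between *Agr2* and *Tff3* and 0.23 between *Spink4* and *Zg16*. These values are descriptions, since the 16 libraries share groups and times.

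Of 9468 other genes with a mean of at least 10 CPM, the 10 most like the mean standardized level of the 8 genes over these 16 libraries were *Rab27a* (r = 0.958), *Fut8* (0.956), *Il13ra1* (0.955), *Pdxdc1* (0.951), *Yipf6* (0.949), *Galnt7* (0.945), *Ppif* (0.920), *Sil1* (0.920), *Ern2* (0.917) and *Mpzl1* (0.915). *Rab27a* encodes the small GTPase that *Sytl2* protein binds, and *Galnt7* an enzyme that adds sugars to mucins. In BF BSHlow tumors *Rab27a*, *Pdxdc1*, *Galnt7*, *Ppif*, *Ern2*, *Il13ra1* and *Yipf6* were called lower than in non-tumor tissues, with log2 fold changes between -3.56 and -1.10. *Mpzl1* was called higher there (1.89), and *Sil1* had 0.14. Between the tumor groups *Rab27a* had a log2 fold change of 1.64 (adjusted p = 0.0502 from edgeR), and the other 9 lay between -0.13 and 0.83.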

How the data were processed

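The authors deposited expected counts per gene, made with RSEM from reads trimmed by Cutadapt and mapped by STAR to the mouse build mm10, and these are not normalized. Picard is also named in the submitters' processing notes. The labels give a total RNA library kit and colonization 2 times a week, while the methods give an mRNA kit and a gavage every few days. After rounding, edgeR 4.0.16 (R 4.3.3) was used for quasi-likelihood F tests with TMM, filterByExpr and Benjamini-Hochberg adjustment over all genes tested. Genes were called at an adjusted p under 0.05 with a change over 1 on the log2 scale in either direction. The comparisons of BF BSHhigh with BF BSHlow used the libraries of the 2 groups compared, and the other contrasts (tumor against non-tumor, 12 against 2 weeks, and interactions) the 4 groups of 12 weeks or the 4 groups outside tumors. The samples are described as independent by the study. CPM used TMM over all 23 libraries, with a prior count of 2 for log2 CPM. Depth was 12401388 to 17903008 counts per library, which is counting depth only and leaves low levels in tumors less precise. All 55449 identifiers matched GENCODE M21, from which positions and transcript lengths came, and 1 gene was left out because a cell holds text. Replicates of a group differed more than sampling noise (chi-square per degree of freedom 16.6 to 126 in 33 pairs), so none was merged.

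The 8 genes, the lists of other goblet cell genes and cell type markers, and the motifs were chosen with earlier results of these data known. Of the other goblet genes, *Muc2*, *Clca1*, *Spdef* and *Atoh1* are named in most comparisons, with up to 4 more of smallest p in a comparison. Of each marker list the first 2 genes and the summed CPM are given, and *Igha*, *Pyy*, *Avil*, *Lypd8* and *Car1* were added after their values were seen. The 4 smallest p-values added *Retnlb*, *Best2*, *Fer1l6*, *Slc12a8*, *Ern2*, *Kcnk6*, *Foxa3*, *B3gnt6* and *Pla2g10* among the goblet genes. Tests were repeated without single libraries and with voom of limma 3.58.1, DESeq2 1.42.0, a likelihood-ratio test, RLE or library size scaling, 2 other filters, all 23 libraries in 1 fit, and replicate number as a block. The test was checked on simulated counts. Tables and plots were made in Python 3.11.15 with pandas 2.3.3, numpy 2.4.6 and matplotlib 3.10.9.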

Additional observations from a re-analysis of the deposited data

Results flagged for a closer look

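In 2 of 40 groups of 4 libraries, 1 library lay further from the others than Dixon's 95% limit for the gap as a part of the range, and chance flags about 1 in 20 groups. *Zg16* had 5213 CPM in replicate 4 of the BF BSHlow non-tumor tissues, where the next library had 2643 CPM. Without it the log2 fold change of BF BSHhigh in non-tumor tissues was 1.005 in place of 0.62. *Sytl2* had 84.8 CPM in replicate 4 of the BF BSHlow normal colon after 2 weeks, where the next library had 56.0 CPM.

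The effect of BF BSHhigh differed between tumors and non-tumor tissues by a test of the difference itself for 4 genes, by 7.18 on the log2 scale for *Zg16*, 4.35 for *Klk1*, 3.53 for *Fcgbp* and 3.13 for *Tff3* (adjusted p between 0.0100 and 0.0227 from edgeR). Every BF BSHhigh tumor was above every BF BSHlow tumor for these 4 genes, while in non-tumor tissues 1, 1, 4 and 2 of 4 BF BSHhigh libraries were above every BF BSHlow library.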

How the results depend on the processing

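In tumors, the number of the 8 genes called, 2, was 5 with DESeq2 (no adjusted p for *Zg16*), 6 with the likelihood-ratio test, 6 with no filter, 4 with library size scaling, 7 with all libraries in 1 fit and 0 with limma-voom, and 0 to 5 with a library left out. In non-tumor tissues and in the interaction with time it was 0, and 1 each with DESeq2 and the likelihood-ratio test. In the interaction with tissue it was 4, 0 with limma-voom, and 3 to 4 with a library left out, the lost call being *Tff3*. Between 12 and 2 weeks it was 1 in BF BSHlow and 6 in BF BSHhigh with library size scaling, and 0 to 1 in BF BSHlow with a library left out. Counts with a library left out have no share over all genes beside them and only describe the 8 genes. Library size scaling gave summed levels of 7637 and 7548 CPM in BF BSHlow and BF BSHhigh normal colon and 236.1 CPM in BF BSHlow tumors. Over all genes, DESeq2 called 569 higher in BF BSHhigh tumors against 71 with edgeR, 46 against 0 in non-tumor tissues, 22 against 1 after 2 weeks, 381 against 160 in the interaction with tissue and 16 against 0 in that with time. The cause of these shifts was not tested. All 8 genes were called lower in tumors of both arms under every alternative.

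The sign turned for uncalled values near 0. With library size scaling, *Klk1* after 2 weeks had -0.0036, and *Spink4* between times in BF BSHlow 0.18. With a library left out, log2 values after 2 weeks ranged from -0.40 to 0.055 for *Agr2*, -0.10 to 0.15 for *Klk1*, -0.16 to 0.16 for *Sytl2* and -0.015 to 0.23 for *Capn9*. Between times in BF BSHlow they ranged from -0.31 to 0.11 for *Spink4* and -0.17 to 0.38 for *Zg16*. The interactions ranged from -0.30 to 0.20 for *Sytl2* with tissue, and from -0.10 to 0.18 for *Tff3* and -0.16 to 0.68 for *Zg16* with time.

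Correlations of same-numbered deviations ranged from -0.216 to 0.323. Between BF BSHlow tumors and non-tumor tissues they were 0.183, -0.108, 0.0117 and 0.117 for replicates 1 to 4. Samples of unlike number were not correlated, so these values cannot tell whether replicate numbers pair the samples. A replicate block called 0 of the 8 genes in each test of BF BSHhigh at 2 and 12 weeks outside tumors, 8 in BF BSHlow tumors, and 0 and 3 between times, and left these counts as they were.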
